A study of Mus musculus with 9 samples.

Results

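Inflammatory secreted proteins are represented here by 10 genes of the 40548 in the RNA-seq table of day 0 and day 7. They are Ptx3, Ccl2, Ccl7, Cxcl1, Cxcl5, Il6, Lif, Lcn2, Saa3 and Il1rl1, taken by symbol from tables of 9 libraries of differentiating mouse calvarial cells. These genes were selected on their RPKM in these libraries at days 0, 4 and 7, which were known when the group was drawn up, so their levels are a description, no test is given for them, and counts of how many moved support nothing. Day 4 is present in a table of 40526 genes, and all 10 genes were found in both tables.

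Cells exposed to injury, microbial products or cytokines such as IL-1 and TNF secrete chemokines that draw in leukocytes, cytokines that act through the shared receptor chain gp130, and acute-phase and pattern-recognition proteins that coat microbes or carry lipids and siderophores. Much of this output is controlled through the transcription factor NF-κB and, downstream of gp130, through JAK kinases and STAT3. In bone, IL-6 and LIF act on osteoblasts and on the osteoclasts they instruct, and CCL2 attracts the monocytes from which osteoclasts arise. Il1rl1, also called ST2, differs from the others in that it encodes a receptor for IL-33. It is made as a membrane form and as a secreted decoy, and values per gene do not separate these.

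The cells came from the calvaria, the flat bones of the skull vault, of pups given as C57BL/6 in the sample records and as C57BL/6J in the methods, and the records place the pups at postnatal day 2-3. Day 0 cells were confluent and undifferentiated, and day 4 and day 7 cells had spent that time in mineralization medium, which contains ascorbic acid and β-glycerol phosphate. The records name no transgene, and all groups shared isolation by collagenase and culture to confluence. By the methods, differentiated cells of day 4 and day 7 were released with collagenase I, for longer at day 7, and then with trypsin, and the records tie collagenase to mineralized cells. Dissociation and stage therefore cannot be told apart. Each stage had 3 biological replicates, and the methods describe pups of both sexes without saying how many were pooled.

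Levels are given as RPKM, the reads on a gene per kilobase of its model, scaled to the reads of the library, and therefore can be compared between genes. Reads counted on genes ranged from 7741204 to 14013219 at day 0 and from 10675858 to 15622755 at day 7. They ranged from 32820610 to 37306090 at day 4, so the day 4 libraries could detect lower levels. Values of day 4 were also deposited apart from those of day 0 and day 7. At day 4, stage therefore cannot be told apart from depth or from any difference between these sets of values. This holds for every day 4 level given below, and the part of such differences was not tested. The transcript Gm42418 took 11.97% of the reads of day 0 replicate 3 and 8.12% of day 7 replicate 2, against 0.110% to 3.04% in the other libraries, and Plekhh2 took 7.95% in day 7 replicate 3. Of 12 osteoblast markers, 10 were higher at day 7 than at day 0 past the threshold of limma and none was lower. Of all genes tested, 12.6% were higher and 18.6% lower. No osteoblast marker was lower at an unadjusted p under 0.05 either. In bulk RNA, fewer cells of a type and less RNA per cell cannot be told apart.

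Reference promoters show where inflammatory transcription factor motifs lie in these genes. RefSeq promoter windows, from 250 bases before to 50 bases after a transcript start on GRCm38.p6, were found for 7 of the 10 genes, in 8 windows because Il1rl1 has a pair of them. No window was found for Ccl2, Ccl7 or Cxcl5. The κB consensus, searched on both strands, was present in 3 windows, those of Ptx3, Il6 and Cxcl1, against 4.51% of all 32851 windows. The AP-1 motif TGANTCA was present in those of Il6 and Lif, against 7.81% of all windows. The STAT motif TTCNNNGAA matched none of the 8, against 8.30% of all windows. A match is a description of letters, and a window without one says nothing of the factor. The 4 windows with a match are shown 5′ to 3′ on the plus strand, from 250 bases before to 10 bases after the start, with matches in capitals, because Ptx3 was the most abundant member at day 0 and Il6, Cxcl1 and Lif had their highest levels at day 4. They lie at chr3:66219637-66219896 for Ptx3, chr5:30012864-30013123 for Il6, chr5:90890995-90891254 for Cxcl1 and chr11:4257318-4257577 for Lif.
Ptx3: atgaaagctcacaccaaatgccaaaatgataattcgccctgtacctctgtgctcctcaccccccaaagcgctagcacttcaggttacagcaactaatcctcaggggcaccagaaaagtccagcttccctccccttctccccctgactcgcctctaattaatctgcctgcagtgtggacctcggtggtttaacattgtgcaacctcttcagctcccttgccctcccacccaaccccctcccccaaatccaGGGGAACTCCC
Il6: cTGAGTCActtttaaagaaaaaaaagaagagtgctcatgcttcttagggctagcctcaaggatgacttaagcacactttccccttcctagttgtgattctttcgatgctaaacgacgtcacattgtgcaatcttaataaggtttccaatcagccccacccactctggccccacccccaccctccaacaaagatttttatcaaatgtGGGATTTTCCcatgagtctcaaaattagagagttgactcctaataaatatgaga
Cxcl1: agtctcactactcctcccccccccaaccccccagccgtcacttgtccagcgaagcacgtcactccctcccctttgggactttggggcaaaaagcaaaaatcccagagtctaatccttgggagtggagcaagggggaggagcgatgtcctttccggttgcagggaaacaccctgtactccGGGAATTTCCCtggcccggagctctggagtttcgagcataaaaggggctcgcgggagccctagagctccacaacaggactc
Lif: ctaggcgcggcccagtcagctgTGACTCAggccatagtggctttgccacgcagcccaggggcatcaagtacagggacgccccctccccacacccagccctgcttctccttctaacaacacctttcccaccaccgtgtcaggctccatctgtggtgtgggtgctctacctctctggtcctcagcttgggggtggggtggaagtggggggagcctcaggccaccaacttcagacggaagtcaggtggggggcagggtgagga
In Ptx3, κB matches on the forward and reverse strands overlap at the start itself. The κB match of Il6 spans positions -44 to -35 from the start and its AP-1 match positions -249 to -243. The forward κB match of Cxcl1 spans -71 to -62 and overlaps a match on the reverse strand, and the AP-1 match of Lif spans -228 to -222.

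Among the 10 genes, 3 patterns over the stages could be read from the library values. Ptx3 was high at day 0 and already low at day 4, Ccl2 and Ccl7 were lowest at day 7, after day 4 levels much nearer to those of day 0, and Cxcl1, Cxcl5, Il6 and Lif were highest in the 3 day 4 libraries. Il1rl1 was highest on average at day 4 with a divergent replicate, whereas Lcn2 was at or under the detection floor in every library and Saa3 was above it in 2 day 4 libraries.

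**Figure D1:**
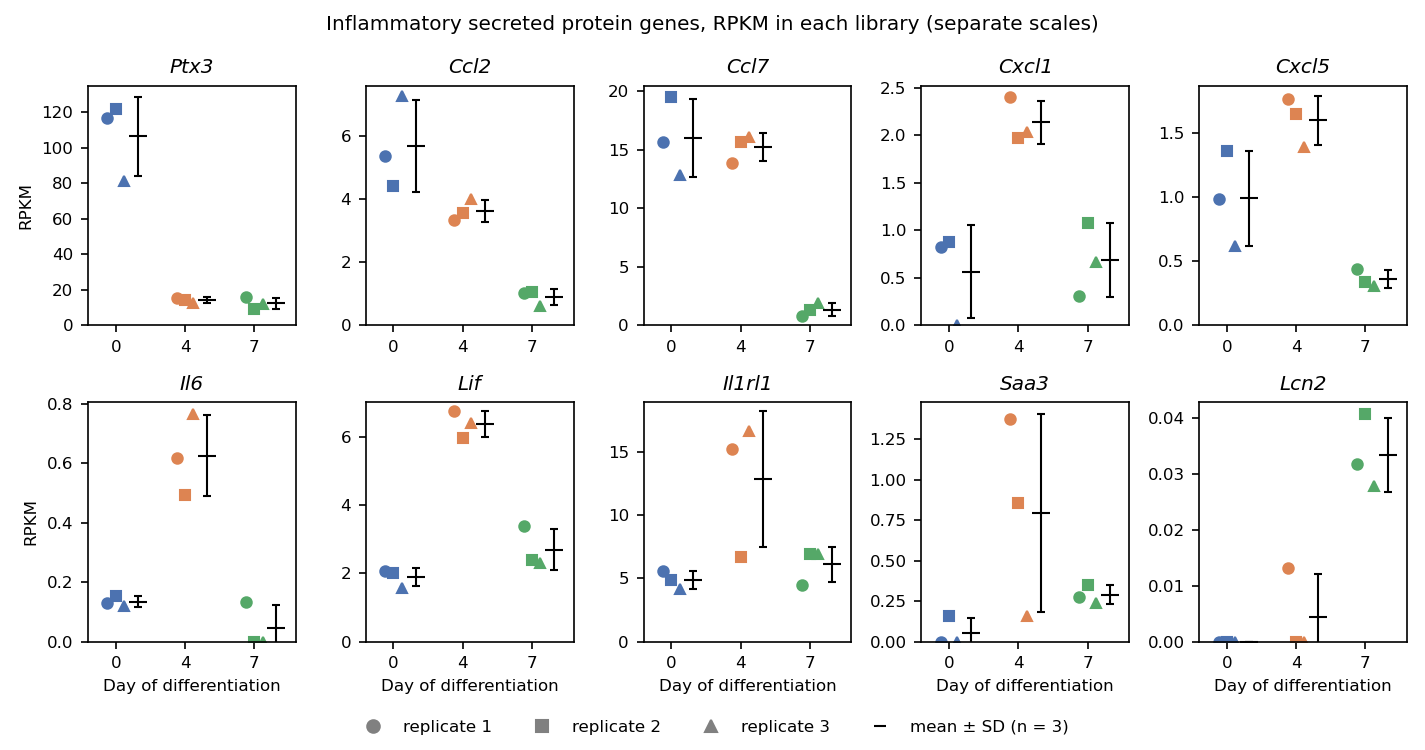
RPKM of the 10 genes against day of differentiation, with 1 panel and 1 linear scale per gene. Coloured symbols are the 3 libraries of a stage, and black marks are the mean ± SD (n = 3). Ptx3 drops from a mean of 106 at day 0 to 14.2 at day 4, Ccl7 stays near 15 to 16 until day 4 and has a mean of 1.34 at day 7, and Lif peaks at 6.37 at day 4.

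Ptx3 encodes long pentraxin 3, a secreted pattern-recognition protein that binds microbes and complement and takes part in matrix assembly with hyaluronan. The gene lies at chr3:66219910-66225805 on the plus strand of GRCm38. Its level was 117, 122 and 81.0 RPKM in the day 0 libraries, 15.7, 14.6 and 12.4 at day 4, and 15.8, 9.35 and 12.2 at day 7. Every day 0 library lay above every later one, while the day 4 and day 7 libraries overlapped. The mean of 106 ± 22.2 RPKM at day 0 was 7.48 times that at day 4 (14.2 ± 1.68) and 8.55 times that at day 7 (12.5 ± 3.24; SD, n = 3 each). On the log2(CPM + 0.5) scale the difference of day 7 minus day 0 was -3.09 with a standard error of 0.17. Ptx3 made up 77.9% of the summed mean RPKM of the 10 genes at day 0, 24.8% at day 4 and 50.02% at day 7. The sum itself went from 137 at day 0 to 57.5 at day 4 and 24.9 at day 7. The gene sits inside Veph1, which runs antisense to it and had 5 to 37 reads per library against 268 to 4396 for Ptx3.

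Ccl2 and Ccl7 encode monocyte chemoattractants that are neighbours on chromosome 11, at chr11:82035571-82037453 and chr11:82045712-82047525, both on the plus strand and 8.26 kb apart. Ccl2 had 5.39, 4.41 and 7.26 RPKM at day 0, 3.34, 3.55 and 4.02 at day 4, and 1.03, 1.07 and 0.618 at day 7. The 3 stages did not overlap, and the order was day 0, day 4 and day 7. The day 0 mean of 5.69 ± 1.45 RPKM was 1.56 times that of day 4 (3.64 ± 0.346) and 6.28 times that of day 7 (0.906 ± 0.250).

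Ccl7 had 15.7, 19.5 and 12.9 RPKM at day 0, 13.9, 15.7 and 16.1 at day 4, and 0.822, 1.29 and 1.92 at day 7. Unlike those of Ccl2, its day 0 and day 4 libraries overlapped, with means of 16.0 ± 3.33 and 15.2 ± 1.19. The day 7 mean of 1.34 ± 0.549 RPKM lay below both, 11.9 times under day 0 and 11.3 times under day 4. The log2 differences of day 7 minus day 0 were -2.18 with a standard error of 0.25 for Ccl2 and -3.10 with 0.24 for Ccl7. At day 7 these levels rest on 11 to 16 reads per library for Ccl2 and 9 to 24 for Ccl7.

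The other chemokines of this cluster were near absent. Over all 9 libraries together, Ccl11 had 7 reads, Ccl12 14 and Ccl8 17, against 1786 for Ccl7. CCL2 and CCL7 signal on leukocytes mainly through CCR2, and CCL7 also through CCR1 and CCR3. The level of Ccr2 was at most 0.0168 RPKM in the mean of any stage, that of Ccr3 at most 0.0170 and that of Ccr1 at most 0.237, so transcripts of the receptors for these ligands were scarce at every stage.

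Cxcl1 and Cxcl5 encode ligands of CXCR2, the receptor that draws neutrophils, and lie 130 kb apart at chr5:90891241-90893115 and chr5:90759360-90761624. Cxcl1 had 0.823, 0.877 and 0 RPKM at day 0, 2.40, 1.97 and 2.04 at day 4, and 0.307, 1.08 and 0.671 at day 7. Every day 4 library lay above all others, while day 0 and day 7 overlapped. Its day 4 mean of 2.13 ± 0.230 RPKM was 3.76 times that of day 0 (0.567 ± 0.492) and 3.11 times that of day 7 (0.686 ± 0.387). Day 0 and day 7 libraries held 0 to 11 reads each, and the 0 in day 0 replicate 3 allows a level of up to 0.406 RPKM at 3 reads.

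Cxcl5 had 0.991, 1.36 and 0.624 RPKM at day 0, 1.77, 1.65 and 1.39 at day 4, and 0.442, 0.339 and 0.309 at day 7. The 3 stages did not overlap, although the lowest day 4 library was within 0.1 RPKM of the highest at day 0. Day 4, at 1.60 ± 0.192, was 1.61 times day 0 and 4.41 times day 7, and day 0, at 0.993 ± 0.370, was 2.73 times day 7 (0.364 ± 0.0697). The log2 difference of day 7 minus day 0 was -0.92 with a standard error of 0.29. Cxcl5 libraries held 23, 27 and 8 reads at day 0 and 10, 6 and 8 at day 7.

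In the same cluster Cxcl2 and Cxcl3, which encode the closest relatives of CXCL1, had no reads at day 0 and 16 reads each over the 9 libraries. Cxcl15 had 1 read and Ppbp 69. Pf4, which encodes platelet factor 4, was the exception, with 1.62 ± 0.208, 3.63 ± 0.504 and 4.12 ± 0.653 RPKM at the 3 stages. It rose between day 0 and day 7 by 1.00 on the log2 scale (limma adjusted p = 0.00218). Reads on Pf4 numbered 7 to 13 per library at day 0, 63 to 92 at day 4 and 23 to 39 at day 7. The level of Cxcr2 was at most 0.00293 RPKM and that of Cxcr1 at most 0.0143 in the mean of any stage.

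Il6 and Lif encode cytokines of the gp130 family. Il6, at chr5:30013114-30019981 on the plus strand, had 2, 2 and 1 reads at day 0, 22, 20 and 30 at day 4, and 2, 0 and 0 at day 7. These are levels of 0.616, 0.493 and 0.765 RPKM at day 4 and of at most 0.154 elsewhere. Every day 4 library lay above all others, but the day 0 and day 7 libraries were at or under the floor of 3 reads. Against the floor, the day 4 mean of 0.625 ± 0.136 RPKM was at least 2.39-fold higher than day 0 and at least 2.94-fold higher than day 7.

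Lif, at chr11:4257557-4272514 on the plus strand, had 2.07, 2.02 and 1.57 RPKM at day 0, 6.74, 5.97 and 6.39 at day 4, and 3.38, 2.39 and 2.29 at day 7. The stages did not overlap, in the order day 4, day 7 and day 0. Its day 4 mean of 6.37 ± 0.384 RPKM was 3.38 times day 0 (1.89 ± 0.272) and 2.37 times day 7 (2.69 ± 0.603), and it had 963 to 1002 reads per day 4 library. The log2 difference of day 7 minus day 0 was 0.48 with a standard error of 0.20. Osm, the neighbour of Lif at 16.5 kb that encodes the cytokine oncostatin M, had at most 13 reads in any library.

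Lcn2 encodes lipocalin 2, which withholds iron from bacteria by binding siderophores, and Saa3 encodes a serum amyloid A made outside the liver. Both are acute-phase proteins. Lcn2, at chr2:32384633-32388252 on the minus strand, had 1 read in day 4 replicate 1, 1 read in each day 7 library and 0 in the others, so it was at or under the floor in every library and no fold is given. Saa3, at chr7:46711998-46715700 on the minus strand, had 0, 1 and 0 reads at day 0, 24, 17 and 3 at day 4, and 2 in each day 7 library. The day 4 levels of 1.38, 0.858 and 0.157 RPKM spread widely, and replicate 3 was below all day 7 libraries. The day 4 mean of 0.797 ± 0.612 RPKM was at least 1.49-fold higher than the day 0 floor, and day 4 replicate 3 was itself at the floor. Of the 50-base stretches of Saa3 transcripts, 3.57% also occur in other genes, against at most 0.693% for the other members. The neighbours Saa1 and Saa4 were at 0 in all libraries and Saa2 had 1 read. Saa3 was thus above the floor in day 4 replicates 1 and 2 and in no other library.

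Il1rl1, at chr1:40429570-40465415 on the plus strand, had 5.60, 4.85 and 4.14 RPKM at day 0, 15.2, 6.71 and 16.6 at day 4, and 4.49, 6.91 and 6.88 at day 7. Day 4 replicate 2 stood apart from the other day 4 libraries and fell within the range of day 7. All day 4 libraries were above day 0, with a mean of 12.8 ± 5.36 RPKM that was 2.64 times day 0 (4.86 ± 0.729), and 2.11 times day 7 (6.10 ± 1.39) with overlap. Without day 4 replicate 2, a choice made after its value was seen, the day 4 mean was 15.9 RPKM, 3.27 times day 0 and 2.61 times day 7, and no other stage overlapped it. The log2 difference of day 7 minus day 0 was 0.31 with a standard error of 0.17.

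Il1rl1 lies in a cluster of IL-1 receptor genes. Il1r1, the signalling receptor for IL-1, had 8.04 ± 2.62, 6.69 ± 1.28 and 3.32 ± 0.299 RPKM at day 0, day 4 and day 7. It fell by 1.21 on the log2 scale (limma adjusted p = 6.84e-07). Il1rl2, a receptor for IL-36, fell by 0.93 (adjusted p = 0.000361), from 5.05 ± 0.774 to 2.53 ± 0.397 RPKM. Il18rap did not pass the threshold (0.303 ± 0.177 at day 0 and 0.343 ± 0.0908 at day 7), and Il18r1 and Il1r2 were at most 0.156 and 0.221 RPKM in the mean of any stage. Il1rl1, Il18rap, Il18r1 and Il1r2 had their highest means at day 4, whereas in Il1r1 and Il1rl2 the day 0 and day 4 libraries overlapped and both lay above day 7.

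As counts, with the background of all genes beside them and nothing to be read from them, 4 of the 10 genes had every day 4 library above all 6 others (8.07% of the 12782 genes whose CPM averaged 1 or more across all 9 libraries). Of the 10, 7 have that level, and Cxcl1, Cxcl5 and Lif are the members among them with this pattern. That level takes in day 4, and Cxcl1 reaches it only with day 4 (mean CPM 0.597 over the 6 day 0 and day 7 libraries). Every day 4 library was above every day 0 library for 5 of the 10 (background 21.6%) and below for 2 (21.9%). Every day 7 library was below every day 0 library for 4 (25.1%) and above for 3, Lif and the near-absent Lcn2 and Saa3 (17.1%). Every day 7 library was below every day 4 library for 6 (25.0%).

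Levels per length set the members in an order at each stage. At day 0 it was Ptx3, Ccl7, Ccl2, Il1rl1, Lif, Cxcl5 and Cxcl1, with overlap between Ccl2 and Il1rl1 and between Cxcl5 and Cxcl1. At day 4 it was Ccl7, Ptx3, Il1rl1, Lif, Ccl2, Cxcl1 and Cxcl5, and neighbours from Ccl7 to Lif overlapped. At day 7 it was Ptx3, Il1rl1, Lif, Ccl7, Ccl2, Cxcl1 and Cxcl5, and neighbours from Ccl7 to Cxcl5 overlapped. Ptx3 was the 354th gene by level at day 0, the 3528th at day 4 and the 3842nd at day 7.

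The receptors through which these proteins act were compared between day 0 and day 7 with limma. Of 19 receptors, co-receptors and the ligand IL-33, 9 had enough reads to be tested, 3 were higher and 3 were lower at day 7, against 12.6% higher and 18.6% lower among all 12712 genes tested. The largest differences were those of the chains that IL-6 and LIF share or use. Il6st, which encodes gp130, had 79.3, 72.4 and 67.9 RPKM at day 0, 31.3, 25.5 and 28.4 at day 4, and 19.8, 19.4 and 19.2 at day 7. It fell by 1.90 on the log2 scale (standard error 0.15, adjusted p = 1.7e-14). Lifr, the chain that pairs with gp130 to bind LIF, had 8.02, 7.24 and 6.70 RPKM at day 0, 13.6, 14.2 and 14.2 at day 4, and 35.2, 30.9 and 28.7 at day 7. It rose by 2.10 (standard error 0.15, adjusted p = 4.25e-16). The pair of chains thus moved in opposite directions with no overlap between stages, and Lifr passed Il6st in level by day 7. Il6ra, the chain that binds IL-6, was at 0.289 ± 0.0831, 0.248 ± 0.0771 and 0.203 ± 0.0562 RPKM at day 0, day 4 and day 7, with 5 to 37 reads per library, and was under the filter.

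Among the other receptors, Tlr2 and Scarb1, which can bind serum amyloid A, rose by 0.93 and 0.85 on the log2 scale (adjusted p = 0.000362 and 4.11e-05). Tlr4, the receptor for lipopolysaccharide, and Il1rap, the co-receptor of Il1rl1 for IL-33, fell by 0.63 and 0.54 (adjusted p = 0.00599 and 0.0241), and the call of Il1rap held in 9 of 16 alternative analyses. Il33 itself did not pass the threshold, at 1.78 ± 1.02 RPKM at day 0 and 1.76 ± 0.145 at day 7. The lipocalin 2 receptors Slc22a17 and Lrp2 did not pass it either, at 6.26 ± 0.652 and 0.411 ± 0.0614 RPKM at day 0 and 8.17 ± 1.34 and 0.578 ± 0.0657 at day 7. Both were called higher in 5 of 16 alternative analyses, namely median-of-ratios or TMM scaling, edgeR, DESeq2, and TMM with quality weights. The chemokine receptors Ackr1 and Ackr2 and the formyl peptide receptor Fpr2 were at most 0.0927 RPKM in the mean of any stage.

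**Figure D2:**
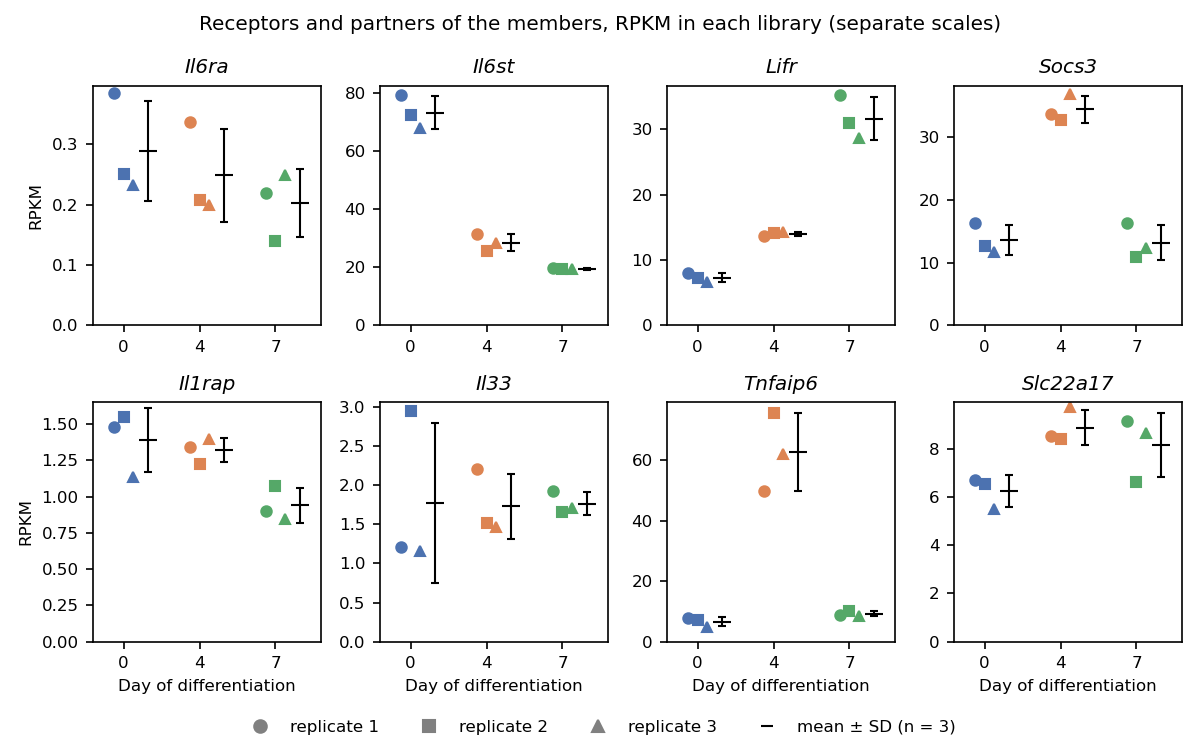
RPKM of 8 receptors and partners of the members against day of differentiation, with 1 linear scale per gene. Coloured symbols are the 3 libraries of a stage, and black marks the mean ± SD (n = 3). Il6st goes from a mean of 73.2 to 19.5 and Lifr from 7.32 to 31.6 between day 0 and day 7, while Socs3 and Tnfaip6 are highest in the day 4 libraries.

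Of the genes of JAK-STAT signalling downstream of gp130, 23 of 23 were tested, 2 were higher and 2 lower at day 7, against 12.6% and 18.6% of all genes. Jak2 rose by 0.78 on the log2 scale (adjusted p = 0.000113) and Ptpn2, a phosphatase that acts on JAKs and STATs, by 0.43 (adjusted p = 0.0421), the latter in 10 of 16 alternative analyses. Jak1, the main kinase bound to gp130, fell by 0.74 (adjusted p = 0.000111) and Socs5 by 0.71 (adjusted p = 0.00101). The median log2 difference was -0.19, against -0.11 over all genes tested. Socs3, the feedback inhibitor of gp130 induced by STAT3, had 16.3, 12.7 and 11.7 RPKM at day 0, 33.6, 32.7 and 36.7 at day 4, and 16.3, 10.9 and 12.3 at day 7. Its day 4 libraries stood above the rest, and its log2 difference of day 7 minus day 0 was -0.05 (adjusted p = 0.85). Socs3 was chosen after its values were seen. Of the 23 genes, 2 had every day 4 library above all others, close to the 8.07% of all genes.

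Of 43 genes of NF-κB, IL-1, TNF and Toll-like receptor signalling, 41 were tested, 2 were higher and 4 lower at day 7 (12.6% and 18.6% of all genes), and the median difference was -0.13. The split depended on scaling, with 6 higher and 6 lower after TMM scaling, 7 and 6 with edgeR or DESeq2, and 9 and 5 with TMM and quality weights. Over the 12712 genes, TMM scaling called 2825 higher and 2634 lower, and edgeR 2818 and 2650. DESeq2 called 2581 and 2329, and TMM with quality weights 3148 and 2972. Tnfaip3, which encodes the NF-κB inhibitor A20, rose by 1.34 on the log2 scale (adjusted p = 5.56e-07), from 0.649 ± 0.0850 to 1.75 ± 0.229 RPKM. Irak3, an inhibitor of Toll-like receptor signalling, rose by 0.60 (adjusted p = 0.039). Beside Il1r1, Traf5 fell by 0.86 (adjusted p = 0.000304), and Tnfrsf1a, the main TNF receptor, and Nfkb1 fell by 0.42 and 0.39 (adjusted p = 0.0355 and 0.0478). The calls of Irak3, Tnfrsf1a and Nfkb1 held in 9, 10 and 8 of 16 alternative analyses. Nfkbia, an NF-κB target and inhibitor, had 11.4 ± 1.64, 10.6 ± 0.949 and 12.2 ± 0.954 RPKM at the 3 stages. Without day 0 replicate 3, which has the largest share of Gm42418, 19 of these genes were called, 18 of them lower, and so were 6330 of all genes, 4699 of them lower.

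Among 50 other chemokines and cytokines, 6 had no reads in any library and 13 were tested. At day 7, 3 were higher and none was lower, against 12.6% and 18.6% of all genes. Among the 3 were Pf4 and the chemokine Ccl9 (0.89 on the log2 scale for the latter, limma adjusted p = 0.00895). The median was 0.14, against -0.11 over all genes tested. At an unadjusted p under 0.05 limma gave 3 higher and 1 lower. With edgeR and DESeq2, 3 were higher and 0 lower each, against 2818 and 2650 (edgeR) and 2581 and 2329 (DESeq2) of 12712 genes. Cxcl14, a chemokine of resident tissue, had the highest mean over the 9 libraries, with 33.1 ± 9.86, 104 ± 5.84 and 29.2 ± 6.20 RPKM at day 0, day 4 and day 7, so it too was highest at day 4. Csf1, the macrophage growth factor, was above it at day 0 and day 7, at 42.0 and 35.4 RPKM. Csf1 was also highest at day 4, at 58.9 RPKM.

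Among 30 other genes listed as acute-phase or innate proteins, 6 had no reads and 10 were tested. Those without reads included the classical C-reactive protein Crp and the short pentraxin Apcs. At day 7, limma called 4 higher and 1 lower (12.6% and 18.6% of all genes), with a median of 0.53. With edgeR and DESeq2, 6 were higher and 0 lower each, against 2818 and 2650 (edgeR) and 2581 and 2329 (DESeq2) of 12712 genes. The neuronal pentraxin Nptx2 rose by 1.54 on the log2 scale (limma adjusted p = 4.92e-06) and Steap4 by 1.01 (adjusted p = 0.00555). The lipopolysaccharide co-receptor Cd14 rose by 0.95 and the lipopolysaccharide-binding protein Lbp by 0.84 (adjusted p = 0.00282 and 0.00387). The calls of Steap4 and Lbp each held in 15 of 16 alternatives and were lost without day 7 replicate 1. Steap4 had 0.802 ± 0.517 RPKM at day 7. Nptx1 fell by 0.72 (adjusted p = 0.0171), a call that held in 8 of 16 alternatives. Between day 0 and day 7, Ptx3 thus differed in direction from Nptx2, its relative, and shared it with Nptx1. Means of Nptx1 were 0.892, 0.252 and 0.507 RPKM at day 0, day 4 and day 7. Every day 7 library of Nptx1 lay above every day 4 library. Of the 11 genes of this list whose CPM averaged 1 or more across all 9 libraries, 7 had every day 4 library above all others, against 8.07% of all genes. That filter takes in day 4, so a gene can pass it through its day 4 level. Serpina3n, at 0.245, 1.81 and 0.563 RPKM at day 0, day 4 and day 7, was not among the 10 tested between day 0 and day 7. Tnfaip6, which encodes the hyaluronan-binding partner of pentraxin 3, TSG-6, had 7.80, 7.28 and 4.83 RPKM at day 0, 49.9, 75.7 and 62.2 at day 4, and 8.90, 10.1 and 8.53 at day 7. It was thus highest at the stage when Ptx3 was already low. Among genes of other lists that pass the filter over 9 libraries, every day 4 library lay above all others for 2 of 9 receptors and ligand. The same was true of 12 of 41 NF-κB, 2 of 23 JAK-STAT and 3 of 13 other cytokine genes. It was true of 0 of 16 macrophage and 1 of 12 osteoblast markers.

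**Figure D3:**
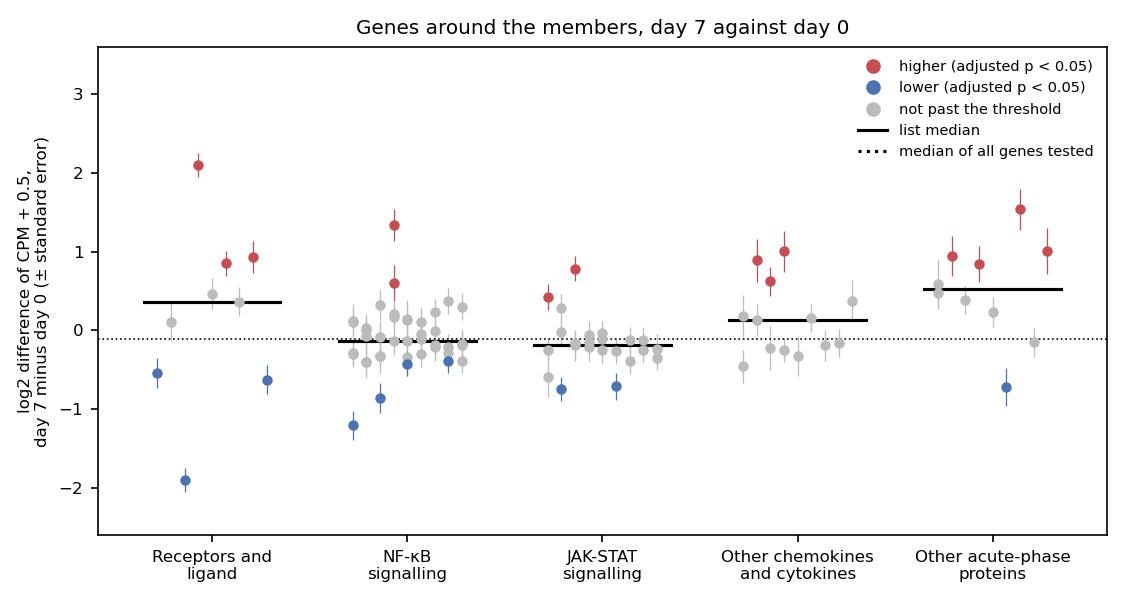
Log2 difference of CPM + 0.5, day 7 minus day 0, for the tested genes of 5 lists around the members, with bars of 1 standard error. Red and blue points passed the adjusted threshold upward and downward, grey points did not, black lines are list medians and the dotted line is the median of all genes tested, -0.11. The widest spread is among the receptors, from -1.90 for Il6st to 2.10 for Lifr.

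Genes that respond to cell dissociation and to serum were also highest at day 4 in many cases, as were Cxcl1, Cxcl5, Il6 and Lif. Of 29 such genes, 14 had every day 4 library above all others (8.07% of all genes) and 19 above every day 0 library (21.6%). Egr3 is among the 29 by the filter that takes in day 4, but was not among the 28 tested between day 0 and day 7. The summed level of the 29 was 929 to 1209 CPM at day 0, 2008 to 2385 at day 4 and 1223 to 1518 at day 7. Ptgs2, which encodes the inducible cyclooxygenase, had 10.8 ± 2.88, 96.0 ± 11.9 and 26.4 ± 6.50 RPKM at day 0, day 4 and day 7, and Fos had 4.85 ± 0.237, 23.9 ± 1.99 and 5.10 ± 1.59. Junb had the highest mean over the 9 libraries, 55.2 RPKM, although Klf6 was above it at day 0, at 57.3 RPKM. None of the 29 was at 0 in all libraries. Between day 0 and day 7, 10 of the 28 tested were higher and 2 lower, against 12.6% and 18.6% of all genes. Their part in the day 4 levels of Cxcl1, Cxcl5, Il6, Lif and Il1rl1 was not tested.

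**Figure D4:**
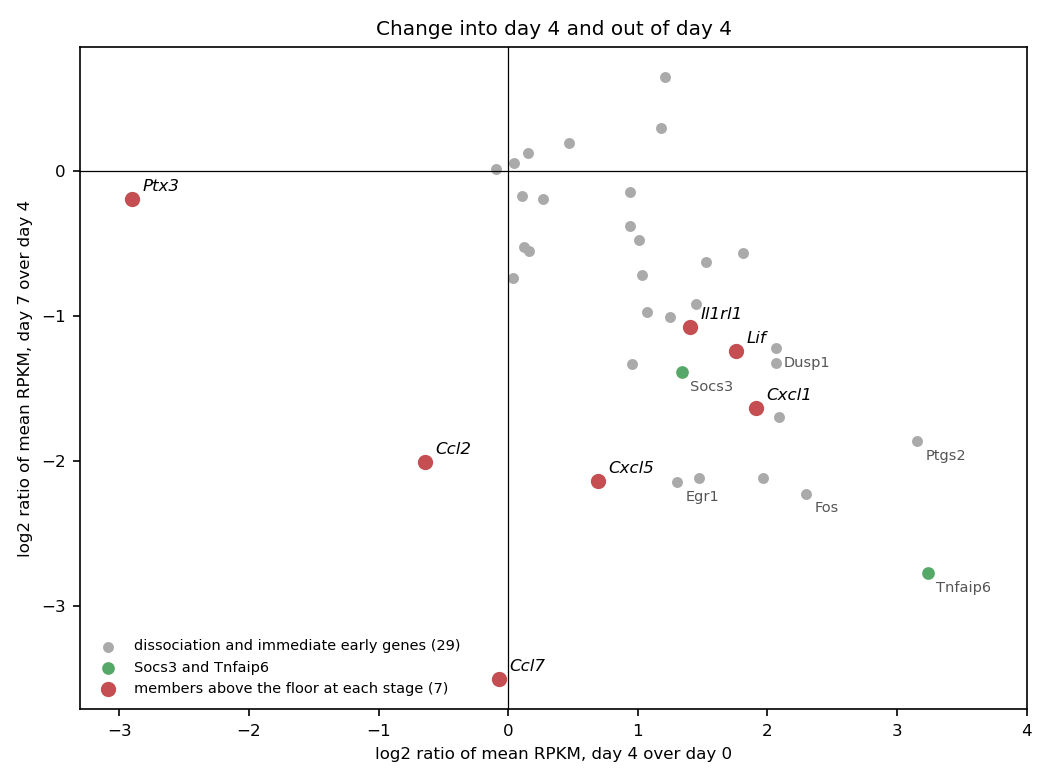
Log2 ratio of mean RPKM at day 4 over day 0 (horizontal) against day 7 over day 4 (vertical) for 7 members in red, 29 dissociation and immediate early genes in grey, and Socs3 and Tnfaip6 in green. Both ratios use the day 4 mean, so the axes are not independent. Cxcl1, Cxcl5, Lif and Il1rl1 lie in the lower right quadrant with Fos, Ptgs2 and Socs3, while Ptx3 lies at the far left and Ccl7 at the bottom.

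Markers of other cell types that can secrete these proteins were measured beside the members. Of 15 macrophage markers tested, 14 were higher at day 7 than at day 0, against 12.6% of all genes, and the summed level of 17 was 82.7 to 141 CPM at day 0, 164 to 191 at day 4 and 175 to 230 at day 7. Lyz2, the highest by the mean over the 9 libraries, had 47.7 ± 14.3, 73.4 ± 3.15 and 79.4 ± 11.7 RPKM at the 3 stages, and none was at 0 in all libraries. Their part in the levels of the 10 members was not tested. Nor was it tested for the listed genes that rose between day 0 and day 7, such as Pf4, Ccl9, Tlr2 and Cd14. Of 12 neutrophil markers the sum was at most 1.17 CPM in any library, Mmp8 had the highest mean over the 9 libraries, 0.117 RPKM, and Ly6g, Elane and Retnlg were at 0. Of 11 lymphocyte markers the sum was at most 1.78 CPM, Gata3 had the highest mean over the 9 libraries and Cd3g and Ms4a1 were at 0.

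Of 9 mast cell markers, the sum was 0.214 to 0.334 CPM at day 0, 2.08 to 2.53 at day 4 and 1.41 to 4.03 at day 7. Mcpt4, Tpsb2, Tpsab1 and Fcer1a were at 0. Kit, the highest, had 0 to 1 reads per library at day 0, 67 to 80 at day 4 and 21 to 48 at day 7. It was the 1 mast cell marker tested and was higher at day 7, by 2.48 on the log2 scale (limma adjusted p = 4.70e-09), against 12.6% of all genes. Il1rl1 is a gene that mast cells also express. Of 9 endothelial markers, the sum was 14.1 to 19.2 CPM at day 0, 48.6 to 63.3 at day 4 and 31.0 to 34.1 at day 7. The sum followed Erg, at 4.07, 15.9 and 9.02 RPKM in the means of the 3 stages, which was higher at day 7 (1.13 on the log2 scale). Of the other endothelial markers, Tie1 and Emcn were at 0 in all libraries, and Pecam1 and Cdh5 were at most 0.0409 and 0.0866 RPKM in the mean of any stage. Tek had 0.200, 0.0492 and 0.101 RPKM in the means of the 3 stages, with 7 to 17 reads per library at day 0.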

How the data were processed

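Total RNA of 9 libraries (3 per stage) was depleted of ribosomal RNA. The authors used STAR 2.0.4b for alignment and featureCounts to assign reads that mapped to 1 place and 1 gene. The use of strand is not given in the sources used here. The deposited CPM values scale each gene to the library total, and the deposited RPKM values also divide by gene model length. All CPM values were whole multiples of 1 read (tolerance 0.01), so the count of reads was recovered. Levels are mean ± SD of RPKM, and 3 reads set the floor, which covers counting error only. Day 7 and day 0 were compared by limma 3.58.1 (trend) on log2(CPM + 0.5) of 12712 genes averaging 1 CPM or more, with Benjamini-Hochberg adjustment over all of them and a threshold of 0.05. The prior had 42.9 degrees of freedom against 4 residual, so each gene's own replicates weigh little in its p-value. Day 4 lies in tables of its own and entered no test. Alternatives used edgeR 4.0.16 and DESeq2 1.42.0 on the recovered reads. The fit was tested on simulated data.

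The members and the lists (receptors, NF-κB, JAK-STAT, other cytokines, other acute-phase proteins, dissociation, cell type markers, cluster neighbours) were chosen with earlier results of these data known. Named genes are all members, receptors, ligands and cluster neighbours, the 3 largest rises and falls past the threshold per list, the highest marker and those at 0, and the 3 nearest patterns of each member with at least 10 reads in every library. Other named genes (Socs3, Nfkbia, Cxcl14, Tnfaip6, Csf1, Klf6, Pecam1, Cdh5, Fos, Ptgs2, Crp, Apcs) were chosen after their values were seen, and some genes that the rule names are not reported here. Coordinates are from GENCODE M21 on GRCm38.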

Additional observations from a re-analysis of the deposited data

How the results depend on the processing

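The members' log2 differences kept their direction in the 9 alternatives run for them (2 scalings, the RPKM table and 6 left-out libraries) for Ptx3, Ccl2, Ccl7, Cxcl5, Lif and Il1rl1; Ptx3 ranged from -3.27 to -2.90 and Ccl7 from -3.31 to -2.90. Counts of called genes moved more. With median-of-ratios or TMM scaling 12 NF-κB and 7 JAK-STAT genes were called, with edgeR and DESeq2 13 and 7, and with TMM and quality weights 14 and 8 and 6120 genes in all, against 6, 4 and 3971; TMM scaling shifted the median of all genes from -0.11 to -0.01 and the share of calls that were higher from 40.3% to 51.8%. With all genes with any reads tested, 6 other cytokines were called. Leaving out 1 library gave 3 to 19 NF-κB, 3 to 10 JAK-STAT, 1 to 6 other cytokine, 2 to 6 acute-phase and 2882 to 6330 genes in all. The highest counts came without day 0 replicate 3, and the lowest for cytokines (1), acute-phase proteins (2) and all genes without day 7 replicate 1. Whether replicate numbers pair the libraries is not known here. Correlations of deviations from stage means were -0.02, -0.18 and -0.44 for like numbers and -0.27 to 0.36 for unlike ones. With 3 libraries per stage and CPM not rescaled, they cannot settle it. A replicate block gave 3 NF-κB genes and 3413 in all. Counts for macrophage (11 to 15) and dissociation genes (9 to 18), added after seeing the data, stayed within 1.5 times. Without day 4 replicate 2, also added then, 18 rather than 14 dissociation genes and 7 acute-phase genes were highest at day 4. Depth limits Il6, Lcn2, Saa3 and Cxcl1, with 0 to 11 reads in day 0 and day 7 libraries. It also limits Cxcl5, with 6 to 10 reads per day 7 library and 8 in day 0 replicate 3.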

Other observations

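The genes whose pattern over the 9 libraries was most like that of a member are given as a description. Of 11527 genes with a mean of at least 1 RPKM, Fam212a (Pearson r = 0.995 of log2(CPM + 0.5)), Pcx and Foxp2 were nearest to Ptx3, and 819 had an r of at least 0.9. Pcx, which encodes pyruvate carboxylase, had means of 21.5, 9.25 and 8.12 RPKM at day 0, day 4 and day 7. Asic1 (r = 0.982), Rspo1, which encodes a Wnt agonist, and Igsf10 were nearest to Ccl2. Zc3h13 (r = 0.998), Sh3bp2 and Zfp36 were nearest to Lif. Zfp36, which encodes tristetraprolin, a protein that shortens the life of cytokine mRNAs, had 5.03, 11.9 and 5.93 RPKM. Mir31 (r = 0.977) and Pkig were among the nearest to Il1rl1, and 12 genes had an r of at least 0.9. The libraries fall into 3 stages and share depth within them, so they are not 9 independent points. Ccl7 had 9 reads in day 7 replicate 1 and no nearest genes are given for it.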
